A study of Mus musculus with 17 samples.

Results

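The response to BMP4 was examined in mouse cells that had switched on FOXA2, the forkhead transcription factor of the floor plate, which is the ventral midline of the neural tube. The comparison takes the 3 FOXA2-positive libraries of the BMP4 arm against the 3 FOXA2-positive libraries of the RA arm, 6 of the 17 libraries of a study on floor plate formation in neural tube organoids; library titles gave the treatment and the sorted fraction. All cells came from R1 mouse embryonic stem cells of the FOXA2-Venus genotype, a fluorescent reporter of FOXA2. The BMP4 group had 18 hours of retinoic acid, 6 hours with no treatment and 8 hours of BMP4, and its labels give the treatment as RA+BMP4. The LDN group, with 2 FOXA2-positive libraries, had the same 18 and 6 hours and then 8 hours of LDN (RA+LDN), an agent that the labels name without saying what it is. The RA group had 18 hours of retinoic acid, and no later hours are given for it. Every group therefore shares the line, the reporter and the 18 hours of retinoic acid. BMP4 and the time of collection cannot be told apart in the comparison with RA, and the same holds for LDN against RA. BMP4 and LDN cells have the same hours. FOXA2-negative cells of the BMP4 and RA arms, 3 libraries each, are given where the difference between fractions was tested. Whether replicate libraries stem from separate cultures is not stated in the labels, so every p-value reflects the spread between libraries alone, and that spread may be technical.

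Bone morphogenetic proteins such as BMP4 bind type I and type II receptor kinases, which phosphorylate SMAD1, SMAD5 and SMAD9. These enter the nucleus with SMAD4 and switch on target genes, among them the ID genes and the inhibitory SMADs that damp the signal. In the embryo BMPs act on the dorsal side of the neural tube and on the surface ectoderm beside it, opposite the floor plate, while Sonic hedgehog acts from the ventral side.

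The 6 libraries held between 8923949 and 10623373 counts assigned to genes, and levels below are CPM, gene counts scaled to a common library size by TMM; they are not divided by gene length. The sort was checked with Foxa2 itself (chromosome 2, 148042877 to 148046969, minus strand, mm10). Foxa2 stood at 27.4, 22.6 and 27.5 CPM in BMP4 cells and at 30.9, 18.4 and 19.8 CPM in RA cells, and the groups overlapped (log2 fold change 0.17 ± 0.61, SE; edgeR adjusted p = 1). FOXA2-negative cells had 0.775 ± 0.86 CPM in BMP4 and 0.311 ± 0.1 CPM in RA (SD, n = 3 each). Of the neural markers, Sox2 was present at 61.7 ± 4.3 CPM in BMP4 cells and 106.5 ± 20.7 CPM in RA cells, and Sox1 at 9.89 ± 2.03 and 15.4 ± 2.61 CPM in the same order. Shh, the signal of the mature floor plate, had 0 counts in all 6 libraries, which allows up to 0.0985 CPM in BMP4 and 0.102 CPM in RA cells (3 counts over a group, counting error only). RA library 1 stood apart from the other 5 on the first principal component (32.8, against -15.8 to 0.428) and had 7.43% mitochondrial counts, against 3.57% to 4.58%. Its part in the results was not tested beyond the values given without it.

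After BMP4, 14 genes differed from RA at an adjusted p under 0.05 in edgeR's quasi-likelihood test, 0.0786% of the 17813 genes tested. Of these, 12 were higher (0.0674% of genes tested) and 2 were lower (0.0112%). Those described here are, among the higher genes, Id1, Id2 and Id3, the inhibitory SMAD gene Smad7, the transcription factor genes Tbx3, Msx2 and Tfap2a, the keratin gene Krt18, and Zfp36l3, Unc5b and Pced1b. The lower genes were the neural progenitor factor Pax6 and the glucose transporter gene Slc2a1. An unadjusted p under 0.05 was reached by 998 of the 17813 genes tested, the share against which such counts within lists stand. The median log2 fold change of all genes tested was -0.01. The count was 9 without RA library 1, 9 without RA library 2 and 7 without BMP4 library 1. DESeq2 called 55 genes, among them all 14. The libraries of the groups did not overlap for 2108 genes, 11.8% of those tested, with 5.69% higher and 6.14% lower.

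**Figure D1:**
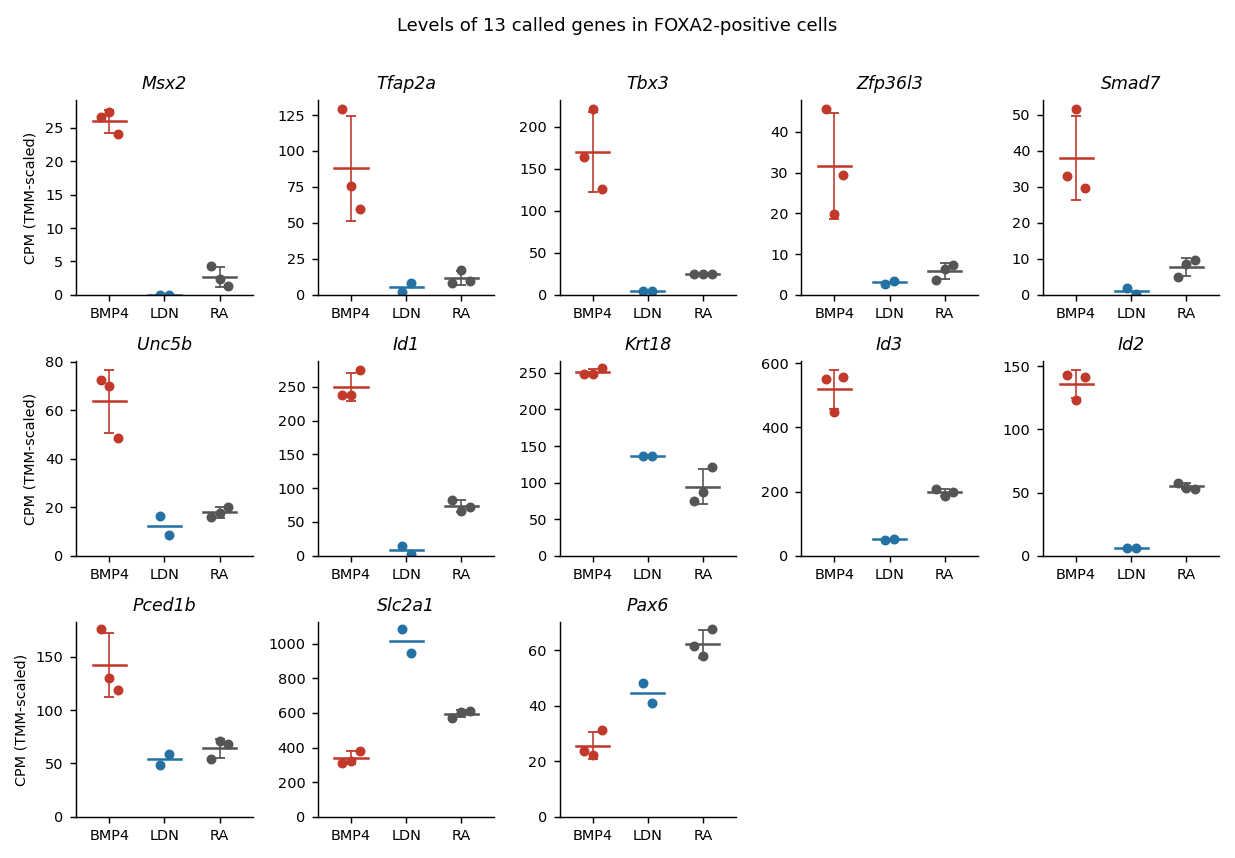
CPM of 13 called genes in FOXA2-positive cells, with 1 point per library (3 BMP4, 2 LDN, 3 RA), horizontal bars at the group mean and error bars of 1 SD for groups of 3; each panel has its own axis from 0. BMP4 libraries lie above all RA libraries in 11 panels and below them in those of Slc2a1 and Pax6.

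The ID genes rose. ID proteins lack a DNA-binding domain and hold E proteins and other basic helix-loop-helix factors away from DNA. Id3 (chromosome 4, 136143497 to 136145755, plus strand) had 549.0, 446.8 and 557.1 CPM in BMP4 cells and 206.8, 186.2 and 199.7 CPM in RA cells. The lowest BMP4 library stood well above the highest RA library, and the log2 fold change was 1.39 ± 0.18 (SE, edgeR adjusted p = 0.000172). Id1 (chromosome 2, 152736251 to 152737410, plus strand) had 237.1, 238.1 and 274.1 CPM after BMP4 and 82.5, 66.3 and 71.9 CPM in RA, with 1.76 ± 0.28 (adjusted p = 0.00529). Id2 (chromosome 12, 25093799 to 25097140, minus strand) had 143.1, 123.2 and 141.5 CPM after BMP4 and 57.6, 54 and 53.2 CPM in RA. Its log2 fold change was 1.31 ± 0.22 (adjusted p = 0.00587), and libraries of either group lay close together. Id4 had 0.756, 1.99 and 0 CPM after BMP4 and 0, 0.0938 and 0 CPM in RA, with 1 count in all RA libraries, and was not called (adjusted p = 0.825). The 4 ID genes had a median log2 fold change of 1.58. Without RA library 2 or 3 the adjusted p of Id1 was 0.0624 and 0.0593 and that of Id2 was 0.0569 and 0.0558. Id2 also passed the threshold no longer without BMP4 library 1 (0.059).

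Id1, Id2 and Id3 were present in RA cells, and they were lower in LDN cells. Id1 had 14.1 and 3.01 CPM in the LDN libraries, against 66.3 to 82.5 CPM in RA. Id2 had 6.34 and 6.02 CPM in LDN, against 53.2 to 57.6 CPM in RA, and Id3 had 49.9 and 53.1 CPM in LDN, against 186.2 to 206.8 CPM in RA. For each of the 3 genes the RA libraries stood between the BMP4 and the LDN libraries, without overlap. LDN cells were lower than RA cells by a log2 fold change of -3.07 for Id1 (adjusted p = 0.000106), -3.15 for Id2 (adjusted p = 1.01e-06) and -1.94 for Id3 (adjusted p = 1.35e-05). Id4 was at 0.473 and 1.2 CPM in LDN, against 1 count in all RA libraries, and was not called (adjusted p = 0.591). The LDN and BMP4 comparisons use the same RA libraries, and in both the treatment cannot be told apart from the time of collection. Over all genes, 37 were called between LDN and RA (0.208% of those tested), 13 higher (0.073%) and 24 lower (0.135%).

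Among the genes that restrain the pathway, Smad7 was the 1 called member of the 9 tested in the BMP feedback list (median log2 fold change 0.39). SMAD7 binds activated type I receptors and blocks SMAD phosphorylation. Smad7 (chromosome 18, 75367529 to 75395935, plus strand) had 32.9, 51.5 and 29.8 CPM in BMP4 cells and 4.98, 8.54 and 9.62 CPM in RA cells. The groups were well apart, but the BMP4 libraries spread widely, and the log2 fold change was 2.30 ± 0.45 (SE, edgeR adjusted p = 0.0316). The call was lost whichever of the 6 libraries was left out, with adjusted p between 0.0523 (without BMP4 library 3) and 0.344 (without BMP4 library 2). Bambi, which encodes a pseudoreceptor that blocks BMP and TGF-beta receptors, had 22.4, 24.7 and 32.6 CPM after BMP4 and 3.98, 4.32 and 4.09 CPM in RA, and missed the threshold (log2 fold change 2.68, adjusted p = 0.1). Nog, the gene of the secreted BMP antagonist Noggin, had 22.7, 17.8 and 16 CPM after BMP4 and 0.111, 1.88 and 2.35 CPM in RA (3.68, adjusted p = 0.395). Smad6, the other inhibitory SMAD gene, had 6.52, 17.8 and 9.6 CPM after BMP4 and 5.09, 2.44 and 4.91 CPM in RA (1.45, adjusted p = 0.825). For these 4 genes every BMP4 library was above every RA library, as was the case for 5.69% of all genes. DESeq2 called Smad7, Bambi (adjusted p = 0.00556) and Nog (0.0474). Over the 26831 genes with a count it called 40 higher and 15 lower, and some of the 26831 received no adjusted p.

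Of the 12 secreted BMP antagonist genes tested, edgeR called 0. An unadjusted p under 0.05 was reached by 2, against 998 of all 17813 genes, and DESeq2 called 1 (Nog). The 7 BMP ligand genes tested gave 0 calls (1, Gdf3, at an unadjusted p under 0.05, 0 by DESeq2). Bmp7 and Gdf3 were below RA in every BMP4 library and 0 members were above, against 6.14% and 5.69% of all genes. The summed level of the list was 62.8 to 85.5 CPM in BMP4 libraries and 97.4 to 117.9 CPM in RA libraries. The gene of the added ligand, Bmp4 itself, had 0.945, 4.71 and 7.17 CPM in BMP4 cells and 7.97, 4.13 and 1.33 CPM in RA cells, which overlapped. Bmp7 had 8.79, 4.29 and 10.1 CPM after BMP4 and 10.6, 12.9 and 16.4 CPM in RA (log2 fold change -0.78, adjusted p = 0.825). Among 12 receptor and signal SMAD genes tested there were 0 calls as well (1 at an unadjusted p under 0.05, 0 by DESeq2). Smad9 was above RA in every BMP4 library, and Acvr2a, Bmpr1b and Rgma were below, against 5.69% and 6.14% of all genes. The type II receptor gene Acvr2a had 4.82, 4.61 and 4.85 CPM after BMP4 and 9.96, 7.88 and 12.7 CPM in RA (-1.09, adjusted p = 0.825). The type I receptor gene Bmpr1a had 46.5, 46.2 and 30.6 CPM after BMP4 and 55.2, 38.6 and 43.8 CPM in RA. Smad1 and Smad5, which carry the signal, overlapped between the groups (log2 fold change -0.18 and -0.13). Smad9 was low, at 3.4, 6.07 and 1.94 CPM after BMP4 and 0.332, 0.375 and 0.511 CPM in RA (3.19, adjusted p = 0.825).

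Of the genes that changed, Tbx3 passed the test by the widest margin. TBX3 is a T-box repressor known from the naive pluripotent state and from limb and heart development, and BMP signalling induces it in several tissues. Tbx3 (chromosome 5, 119670669 to 119684724, plus strand) had 163.3, 220.4 and 125.4 CPM in BMP4 cells and 25.1, 24.3 and 24.5 CPM in RA cells. The RA libraries were almost equal and the BMP4 libraries spread, all far above them (log2 fold change 2.78 ± 0.24, SE, edgeR adjusted p = 1.59e-07). LDN libraries had 5.02 and 4.45 CPM, below every RA library (-2.37, adjusted p = 9.99e-05). Tbx3 was the 1 called member of the 20 pluripotency genes tested, a list whose median log2 fold change was 0.31, or 0.44 with genes at 0 counts set to their bound or left out. Pou5f1, which encodes OCT4, had 14.1, 10.8 and 15 CPM after BMP4 and 14.3, 8.63 and 14.9 CPM in RA. Zfp42 (REX1) had 19.5, 20.3 and 22.9 CPM after BMP4 and 21.8, 19.7 and 17.5 CPM in RA, so both overlapped between the groups. Klf4, Tbx3, Tfcp2l1, Utf1 and Lin28a were above RA in every BMP4 library and Sox2 was below, against 5.69% and 6.14% of all genes. The summed level of the list was 3262.0 to 3492.2 CPM in BMP4, 1506.1 to 2897.2 CPM in RA and 3424.5 to 3892.6 CPM in LDN libraries. An antisense gene, Tbx3os1, overlaps Tbx3, as Gm26688 does Tfap2a, Pax6os1 Pax6, Gm12868 and Gm12867 Slc2a1, and Amigo2 Pced1b. The strand setting of the counting is not given in the sources used here, so reads of these genes and of their partners cannot be told apart.

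Among the dorsal neural tube genes, Msx2 rose. MSX2 is a homeodomain factor of the dorsal neural tube, neural crest and limb, and a long-known BMP target. Msx2 (chromosome 13, 53466884 to 53473074, minus strand) had 26.6, 27.4 and 24.1 CPM in BMP4 cells and 4.31, 2.44 and 1.33 CPM in RA cells. Every BMP4 library was several times the highest RA library (log2 fold change 3.27 ± 0.45, SE, edgeR adjusted p = 0.000701). In LDN cells Msx2 had 0 counts, at least 164.2-fold lower than in BMP4 cells (floor of 3 counts over the group, 0.159 CPM). Its relative Msx1 was far more abundant, at 1042.5, 781.3 and 891.2 CPM after BMP4 and 340.3, 394.2 and 415.8 CPM in RA. The groups did not overlap, but the log2 fold change of 1.24 ± 0.30 was not called (adjusted p = 0.35, and 0.0802 with DESeq2). In edgeR fits with no filter on low counts or with the compared groups alone, Msx1 was called (adjusted p = 2.62e-10 and 0.00301). Over the list, 1 of 14 tested members was called higher and 0 lower, and the median log2 fold change was 0.58. Pax3, a dorsal progenitor factor, had 33.1, 22.8 and 30.1 CPM after BMP4 and 17.8, 17.5 and 19.5 CPM in RA (0.65, adjusted p = 0.86). In the list 5 members were above RA in every BMP4 library and 1 below, against 5.69% and 6.14% of all genes. Of 8 neural crest genes tested, edgeR called 0 (0 at an unadjusted p under 0.05, 0 by DESeq2).

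Genes of the surface ectoderm list were called in the same comparison. Tfap2a encodes the factor AP-2 alpha of surface ectoderm and neural crest (chromosome 13, 40715302 to 40738376, minus strand). It had 128.9, 75.5 and 59.5 CPM in BMP4 cells and 8.19, 17.4 and 9.82 CPM in RA cells, and BMP4 library 1 was the highest by far (log2 fold change 2.89 ± 0.42, SE, edgeR adjusted p = 0.00394). Without RA library 3 its adjusted p was 0.0558. Krt18, a keratin of simple epithelia that pairs with KRT8 (chromosome 15, 102028180 to 102032027, plus strand), had 247.9, 248.1 and 256.5 CPM after BMP4 and 75.2, 86.5 and 121.4 CPM in RA. The BMP4 libraries were nearly equal, and the log2 fold change was 1.41 ± 0.17 (adjusted p = 0.000131). Krt8 had 110.5, 66.2 and 67.8 CPM after BMP4 and 26.3, 29.9 and 52.1 CPM in RA (1.17, adjusted p = 0.131). Krt19 had 46.4, 43.6 and 84.5 CPM after BMP4 and 28.9, 27.1 and 24.1 CPM in RA (1.12, adjusted p = 0.6).

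The GATA factors of early surface ectoderm had the same order of groups and were not called. Gata2 had 28.7, 32.2 and 56.1 CPM after BMP4 and 5.53, 5.54 and 1.33 CPM in RA (log2 fold change 3.23, adjusted p = 0.0577). Gata3 had 67.1, 66.8 and 71.4 CPM after BMP4 and 19, 26.7 and 27.1 CPM in RA (1.50, adjusted p = 0.122). Tfap2c, an AP-2 factor also found in pluripotent and germ cells, had 21.7, 26.5 and 17.3 CPM after BMP4 and 11.5, 10.5 and 11.1 CPM in RA (0.98, adjusted p = 0.305). In the list as a whole, 2 of 16 members were called higher by edgeR and 6 by DESeq2 (Tfap2a, Tfap2c, Gata2, Gata3, Krt8 and Krt18), and 8 were above RA in every BMP4 library, against 5.69% of all genes. The median log2 fold change was 0.67, or 0.98 with Trp63, which had 0 counts in both groups, left out. The summed level of the list was 792.4 to 918.8 CPM in BMP4 libraries and 429.1 to 536.3 CPM in RA libraries. The epithelial genes Cdh1 and Epcam overlapped between the groups, with log2 fold changes of -0.16 and -0.11. In bulk RNA like this, fewer cells of a type and less RNA per cell cannot be told apart.

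Markers of other cell types that the FOXA2 gate could hold are given beside these genes. Of 13 mesoderm and endothelium genes tested, edgeR called 0 (1 at an unadjusted p under 0.05, 0 by DESeq2). Their sum was 40.9 to 74.5 CPM in BMP4 libraries and 32.3 to 44.2 CPM in RA libraries, which overlapped, and Cdh5, the endothelial cadherin gene, had 0 counts in all 6. The median log2 fold change of this list was 0.96, with 10 positive and 3 negative. Its members Gata5, Hand1 and Foxf1 were above RA in every BMP4 library and Pdgfra was below, against 5.69% and 6.14% of all genes. Gata5, a cardiac and endodermal GATA factor, had 3.68, 11.9 and 4.46 CPM after BMP4 and 0.885, 1.13 and 0.614 CPM in RA (2.92, adjusted p = 0.825). Hand1, a mesoderm and trophoblast factor, had 23.5, 3.77 and 3.1 CPM after BMP4 and 0 counts in RA, at least 99.2-fold higher (floor of 3 counts over the group, adjusted p = 0.653), and BMP4 library 1 was far above the others. Of 12 endoderm genes tested, edgeR called 0 (2 at an unadjusted p under 0.05, 0 by DESeq2), with a sum of 177.8 to 255.4 CPM in BMP4 and 191.9 to 226.5 CPM in RA libraries. Gata4 and Foxa3 were above RA in every BMP4 library and 0 members were below, against 5.69% and 6.14% of all genes. Sox17, an endoderm factor, had 33.4, 10.9 and 24.6 CPM after BMP4 and 21, 27.3 and 18.1 CPM in RA (log2 fold change 0.05). Gata4 was low, at 9.92, 2.93 and 3.39 CPM after BMP4 and 1.77, 0 and 0.205 CPM in RA (3.04, adjusted p = 0.825), and Afp had 0 counts in all 6 libraries. The part of other cell types in the calls was not tested.

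**Figure D2:**
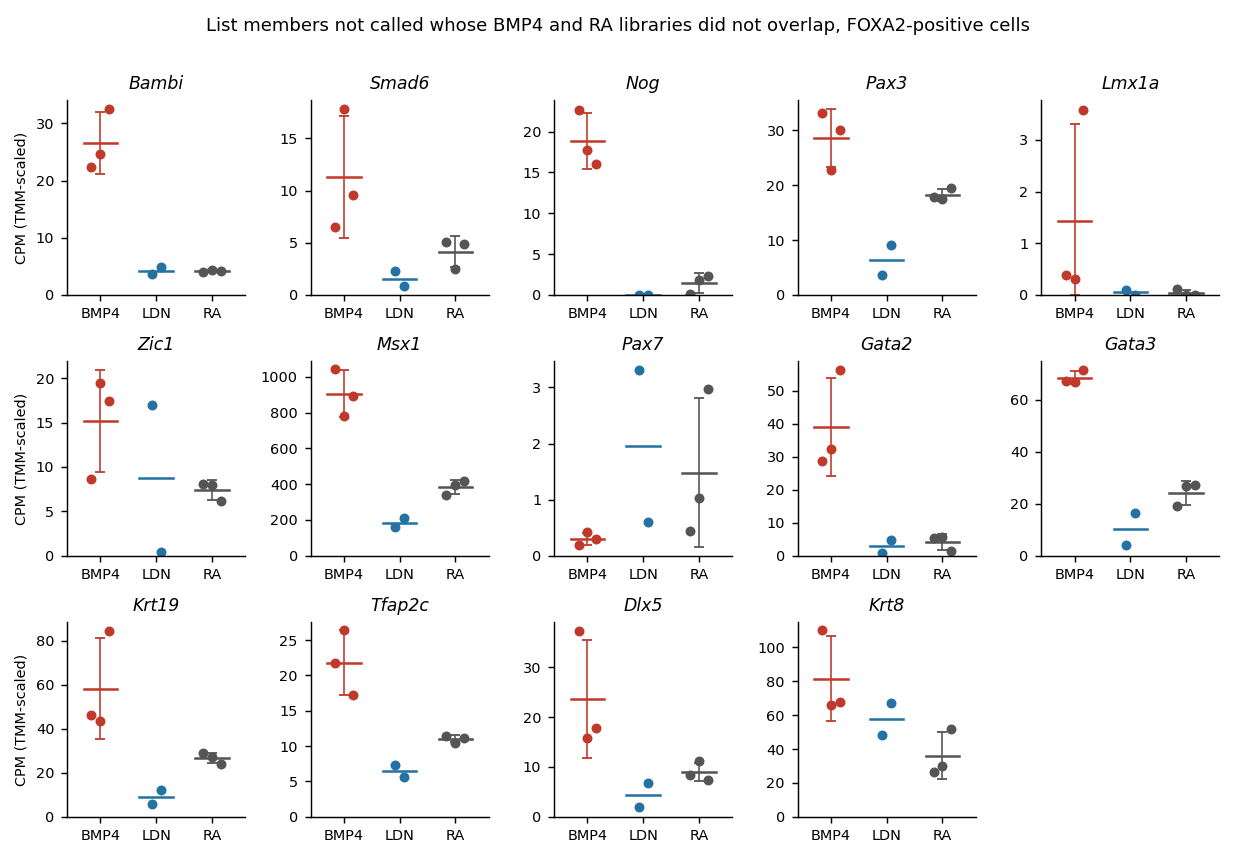
CPM by library in FOXA2-positive cells for the members of the BMP feedback, dorsal neural tube and surface ectoderm lists that were not called and whose BMP4 and RA libraries did not overlap, chosen after their values were seen. Points are libraries, horizontal bars group means, error bars 1 SD for groups of 3 (cut at 0), and each panel has its own axis; BMP4 libraries lie above RA libraries in every panel except that of Pax7, where they lie below and all levels are low.

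A further 3 higher genes belonged to no list. Zfp36l3, a rodent-specific relative of the RNA-binding protein tristetraprolin (chromosome X, 53774048 to 53776394, minus strand), had 45.6, 19.8 and 29.5 CPM in BMP4 cells and 3.54, 6.38 and 7.36 CPM in RA cells (log2 fold change 2.45 ± 0.37, SE, edgeR adjusted p = 0.00235). Unc5b, a netrin receptor gene (chromosome 10, 60762593 to 60831581, minus strand), had 72.3, 70 and 48.6 CPM after BMP4 and 15.9, 17.5 and 20.2 CPM in RA (1.83 ± 0.30, adjusted p = 0.00529). In both genes the BMP4 libraries spread more than the RA libraries and stayed well above them. Pced1b (chromosome 15, 97247107 to 97385680, plus strand) had 175.9, 130.4 and 119.1 CPM after BMP4 and 53.9, 70.7 and 67.8 CPM in RA (1.15 ± 0.21, adjusted p = 0.023). BMP4 library 1 was the highest, and without it the adjusted p was 0.285. Pced1b also lost its call without RA library 1 (0.2), 2 (0.0624) or 3 (0.0933) or BMP4 library 2 (0.0552). Unc5b lost its call without RA library 1 (0.0659) or 2 (0.0569) or BMP4 library 1 (0.059).

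The 2 genes that fell were of other kinds. Pax6 encodes a paired-box homeodomain factor of neural progenitors (chromosome 2, 105668900 to 105697364, plus strand). It had 23.8, 22.1 and 31.1 CPM in BMP4 cells and 61.6, 57.8 and 67.8 CPM in RA cells, with no overlap (log2 fold change -1.28 ± 0.24, SE, edgeR adjusted p = 0.023). Its call was lost without RA library 1 (adjusted p = 0.09), 2 (0.0617) or 3 (0.14) and without BMP4 library 1 (0.216) or 2 (0.25). Slc2a1 encodes GLUT1, a glucose transporter of the plasma membrane (chromosome 4, 119108711 to 119137983, plus strand). It had 313.0, 325.0 and 382.3 CPM after BMP4 and 571.0, 602.7 and 610.7 CPM in RA (-0.81 ± 0.13, adjusted p = 0.00394, and 0.0672 without BMP4 library 1). The libraries of either group lay close together, and LDN libraries were higher still, at 1085.1 and 947.1 CPM (0.77 against RA, adjusted p = 0.013).

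Pax6 was the 1 called gene of 15 neural progenitor genes tested, a list with a median log2 fold change of -0.15. Sox2, a SOXB1 factor of neural and pluripotent cells, had 57.1, 65.6 and 62.4 CPM after BMP4 and 128.0, 104.9 and 86.6 CPM in RA (-0.79, adjusted p = 0.234, and 0.044 with DESeq2). Sox1 had 8.22, 12.1 and 9.31 CPM after BMP4 and 18.4, 13.6 and 14.1 CPM in RA (-0.64, adjusted p = 0.829). Both were below RA in every BMP4 library and neither was called by edgeR. In the list 4 members (Cdh2, Pax6, Sox2 and Sox1) were below RA in every BMP4 library and 0 above, against 6.14% and 5.69% of all genes. The intermediate filament gene Nes overlapped between the groups (0.36, adjusted p = 0.866). Slc2a1 was the 1 called gene of 20 in the glycolysis and hypoxia list (median 0.08). The related transporter gene Slc2a3 had 411.4, 358.1 and 445.1 CPM after BMP4 and 339.3, 415.5 and 476.3 CPM in RA (-0.02, adjusted p = 1). Ldha, the lactate dehydrogenase A gene, had 242.4, 193.0 and 269.5 CPM after BMP4 and 200.3, 175.7 and 191.8 CPM in RA (0.31, adjusted p = 0.825).

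**Figure D3:**
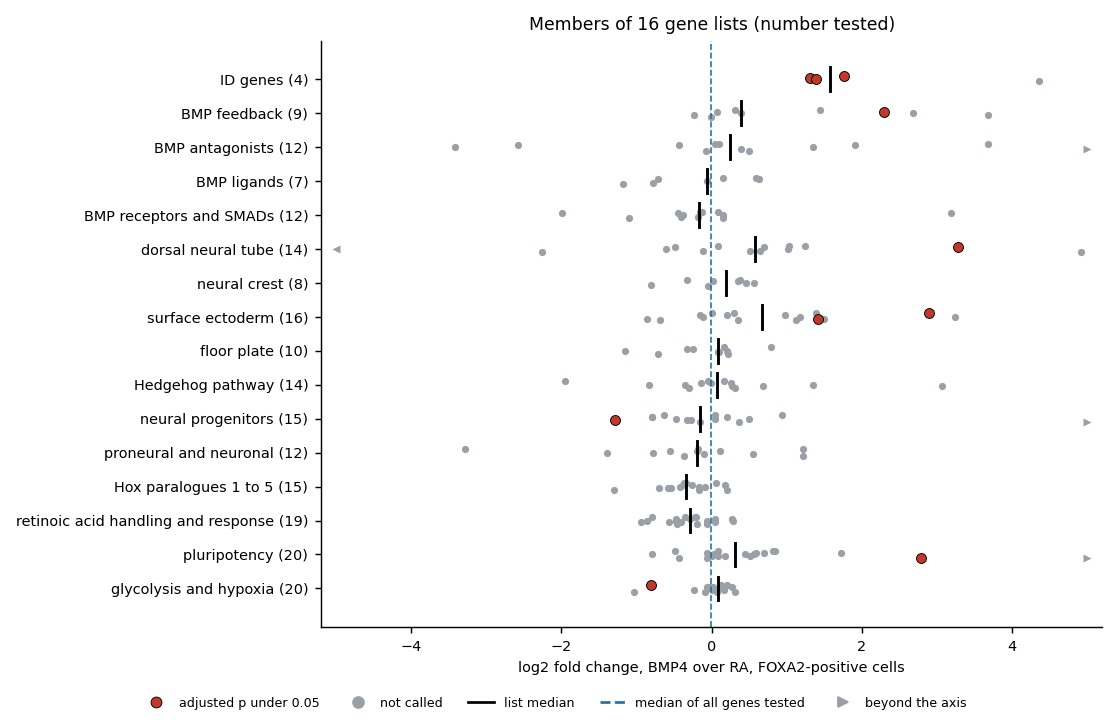
Log2 fold change, BMP4 over RA in FOXA2-positive cells, of the tested members of 16 gene lists (1 point per gene, red where the adjusted p was under 0.05; black bars are list medians, the dashed line the median of all genes tested; arrowheads lie beyond the axis). Fitted values of genes with few or 0 counts in a group are unstable; called members lie in 7 of these lists, with 3 genes in the ID list.

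Sequence upstream of the called genes is shown because SMAD1 and SMAD5 complexes are known to bind the GC-rich motif GGCGCC, which occurs in enhancers of Id genes. RefSeq windows of 250 bases before the transcript start (GRCm38.p6) were at hand for 10 of these 13 genes, 12 windows in all. GGCGCC lay in those of Id2 (from base -231) and Krt18 (from base -86), 2 of 10 genes, against 9.59% of 32851 windows of that length. CAGACA, a motif bound by SMAD3 and SMAD4, lay on either strand in 1 of the 10 genes (Krt18), against 17.1% of windows. GTCTAGAC, the palindromic SMAD3 and SMAD4 site, lay in 0 of the 10, against 0.167% of windows. GGCGCC and GTCTAGAC read the same on both strands, and the motifs found did not overlap. The following lines give the parts of these windows that no GENCODE exon covers, 5′ to 3′, for the genes with GGCGCC (in capitals) and for Slc2a1, a gene that fell: Id2 at chr12:25096254-25096342 (minus strand), Krt18 at chr15:102027966-102028179 (plus strand) and Slc2a1 at chr4:119108495-119108710 (plus strand).
Id2: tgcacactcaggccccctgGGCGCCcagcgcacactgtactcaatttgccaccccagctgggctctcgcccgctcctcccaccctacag
Krt18: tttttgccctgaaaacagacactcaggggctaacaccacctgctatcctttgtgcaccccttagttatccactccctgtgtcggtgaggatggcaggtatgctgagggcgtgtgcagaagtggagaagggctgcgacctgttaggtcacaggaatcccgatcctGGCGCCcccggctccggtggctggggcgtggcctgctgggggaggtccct
Slc2a1: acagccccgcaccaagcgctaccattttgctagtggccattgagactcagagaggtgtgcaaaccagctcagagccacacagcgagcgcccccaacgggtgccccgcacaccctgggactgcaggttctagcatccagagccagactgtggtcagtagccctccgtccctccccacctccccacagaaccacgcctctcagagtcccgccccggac
The Id2 stretch lies before the RefSeq start but inside the annotated gene, in the first intron of a longer GENCODE transcript. No match in a window says only that these letters are not in it.

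Genes of the floor plate were not called. Of 10 tested, edgeR called 0 (1 at an unadjusted p under 0.05, against 998 of all 17813 genes, and 0 by DESeq2). The median log2 fold change was 0.09. Foxa1, a relative of Foxa2, had 13, 9.22 and 3.88 CPM after BMP4 and 18.4, 11.8 and 2.76 CPM in RA. Ntn1, the gene of the guidance cue netrin 1, had 2.46, 4.82 and 4.75 CPM after BMP4 and 11.1, 4.69 and 11.1 CPM in RA (-1.16, adjusted p = 0.825). The summed level of the list was 103.4 to 136.1 CPM in BMP4 libraries and 98.6 to 129.5 CPM in RA libraries. No list member separated the groups. Ferd3l and Corin had 0 counts in all 6 libraries.

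The Hedgehog list had 14 members tested and 0 called by edgeR. An unadjusted p under 0.05 was reached by 2, against 998 of all 17813 genes, and DESeq2 called 0. The receptor gene Ptch1, itself a target of the pathway, had 71.1, 122.8 and 106.3 CPM after BMP4 and 140.6, 104.9 and 65.3 CPM in RA, which overlapped (log2 fold change -0.05). Gli1, another target, had 15.5, 27.3 and 16.5 CPM after BMP4 and 9.74, 7.13 and 6.44 CPM in RA (1.35, adjusted p = 0.685). Hhip, a target that encodes a Hedgehog-binding inhibitor, had 2.55, 0.943 and 1.75 CPM after BMP4 and 8.63, 6.57 and 5.32 CPM in RA (-1.96, adjusted p = 0.6). These 2 targets lay on opposite sides of RA without overlap, and neither was called. In the list Gli1 was above RA in every BMP4 library and Boc and Hhip were below, against 5.69% and 6.14% of all genes.

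Genes that handle or answer retinoic acid are given in full count, since the labels give the BMP4 arm hours after the 18 hours of retinoic acid and the RA arm none. Of 19 tested, edgeR called 0. An unadjusted p under 0.05 was reached by 5, all lower, against 998 of all 17813 genes. DESeq2 called Meis2 (adjusted p = 0.0272). The median log2 fold change was -0.29, with 15 negative and 4 positive, and 6 members were below RA in every BMP4 library, against 6.14% of all genes. Meis2, a TALE homeodomain factor induced by retinoic acid, had 151.3, 207.9 and 191.3 CPM after BMP4 and 413.6, 242.7 and 302.6 CPM in RA (-0.80, adjusted p = 0.141). Stra8, named for its induction by retinoic acid, had 352.6, 456.8 and 404.2 CPM after BMP4 and 542.8, 622.2 and 503.0 CPM in RA (-0.46, adjusted p = 0.765). Cyp26a1, the gene of a retinoic acid-degrading enzyme, overlapped, with 42.1, 30 and 31.5 CPM after BMP4 and 29.3, 47.8 and 42.5 CPM in RA. In LDN cells Meis2 stood at 232.8 and 242.8 CPM and Stra8 at 440.8 and 421.1 CPM. Hox paralogues 1 to 5, which mark anterior levels of the body axis, gave 0 calls of 15 (1 at an unadjusted p under 0.05, 0 by DESeq2), with a median of -0.34 and 12 negative.

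The lists on signalling, growth and cell state that are not described elsewhere held no edgeR call. Among them, an unadjusted p under 0.05 was reached by 2 of 12 proneural and neuronal genes, 1 of 14 Hox genes of paralogues 6 to 13, 0 of 9 epiblast genes, 2 of 13 Nodal and primitive streak genes, 1 of 17 Notch genes and 2 of 21 FGF and ERK feedback genes. The same held for 1 of 12 immediate early genes, 3 of 16 sterol synthesis genes, 2 of 13 stress and amino acid response genes, 3 of 12 p53 targets and 1 of 12 cyclin D and CDK inhibitor genes. For the cell cycle it was 2 of 15 S phase and 2 of 15 G2/M genes, and for structure 2 of 15 cadherin and junction genes and 1 of 17 basement membrane genes. The last lists were 2-cell stage genes (0 of 9) and mitochondrially encoded genes (1 of 7). An unadjusted p under 0.05 was reached by 998 of all 17813 genes. DESeq2 called 0 genes in each of these lists. Every BMP4 library was above every RA library for 4 cyclin D and CDK inhibitor genes (Ccnd1, Ccnd2, Ccnd3 and Cdkn1c). It was so for 3 sterol synthesis and 3 basement membrane genes, with 0 below in any of them. Of the p53 targets 3 were below and 0 above, and of the cadherin and junction genes 3 were below and 1 above. Over all genes the shares were 5.69% above and 6.14% below. The rest of these lists had at most 2 members on either side. The Wnt list had 0 edgeR calls of 14 (2 at an unadjusted p under 0.05, and both by DESeq2). Its median log2 fold change was 0.33, with 11 positive and 3 negative. Axin2, Dkk1, Lef1, Znrf3 and Ccnd1 were above RA in every BMP4 library, and Nkd2 and Sp5 were below, against 5.69% and 6.14% of all genes.

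BMP4 and LDN cells have the same hours in the labels. Between them 57 genes were called (0.32% of those tested), 42 higher (0.236%) and 15 lower (0.0842%). It shares the BMP4 libraries with the comparison against RA, so its values are set beside those above. The 10 higher genes other than Msx2 had log2 fold changes over LDN of 0.88 (Krt18) to 5.16 (Tbx3), with edgeR adjusted p of 1.93e-10 (Tbx3) to 0.0414 (Krt18). Id1 stood at 4.84, Id2 at 4.46, Id3 at 3.33, Smad7 at 5.15 and Tfap2a at 4.08. For 7 of the 11 higher genes described every LDN library was below every RA library, for Tfap2a, Unc5b and Pced1b the LDN and RA libraries overlapped, and for Krt18 both LDN libraries (136.2 and 137.0 CPM) were above all RA libraries. Slc2a1 was lower than in LDN by -1.58 (adjusted p = 1.12e-07). Pax6 was not called against LDN, where it had 48.2 and 40.9 CPM (-0.80, adjusted p = 0.358).

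Some genes not called against RA were called against LDN. Gata3 had 4.17 and 16.6 CPM in LDN cells (log2 fold change of BMP4 over LDN 2.73, edgeR adjusted p = 0.000802), Gata2 had 0.852 and 4.81 CPM (3.82, adjusted p = 0.0294) and Msx1 had 161.5 and 210.3 CPM (2.28, adjusted p = 0.00723). Krt19 had 5.87 and 12.2 CPM (2.70, adjusted p = 0.00111) and Tfap2c had 7.29 and 5.66 CPM (1.75, adjusted p = 0.00284). Nog had 0 counts in both LDN libraries, at least 118.3-fold lower than in BMP4 cells (adjusted p = 0.00921). Bambi had 3.69 and 4.81 CPM in LDN cells, close to its RA values, and was not called (2.64, adjusted p = 0.128). The Wnt target genes Lef1 and Dkk1 were called against LDN (adjusted p = 0.000469 and 0.00953). Against RA, Lef1 had 54.4, 40 and 56.7 CPM in BMP4 cells and 27, 19.5 and 24.3 CPM in RA cells (1.09, adjusted p = 0.305). Dkk1, a secreted Wnt inhibitor that also answers BMP, had 32.4, 31.5 and 33.8 CPM after BMP4 and 2.88, 1.41 and 6.24 CPM in RA (3.21, adjusted p = 0.35).

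FOXA2-negative cells of the same treatments showed the same direction in all 13 genes described. Their libraries hold other cells, but they entered the same fit, which estimates the spread over all 17 libraries. Of the 13, Id1, Id2, Id3, Tbx3 and Unc5b were called there, where 0.0786% of genes were called, 0.0561% higher and 0.0225% lower. The difference of the BMP4 change between the fractions was tested for every gene. Of the 13, edgeR called 0, with Tbx3, Tfap2a, Msx2 and Krt18 at an unadjusted p under 0.05, against 742 of all 17813 genes. DESeq2 called Krt18 (adjusted p = 0.0036). The 13 genes were picked by their change in the FOXA2-positive libraries, which also enter this difference. Their differences and unadjusted p-values therefore lean toward a larger change in FOXA2-positive cells. Over all genes 1 was called, 0.00561% of those tested. Krt18 had 149.6, 175.9 and 173.2 CPM in FOXA2-negative BMP4 cells and 121.6, 170.0 and 154.3 CPM in FOXA2-negative RA cells, which overlapped. Its change was 1.41 in FOXA2-positive and 0.16 in FOXA2-negative cells, a difference of 1.25 ± 0.24 (SE, edgeR adjusted p = 0.197). For Tbx3 the changes were 2.78 and 1.55 (difference 1.23 ± 0.32, adjusted p = 0.906). Id1 changed by 1.76 and 2.20, Id2 by 1.31 and 1.65 and Id3 by 1.39 and 1.67, each with an adjusted p of 1 for the difference.

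**Figure D4:**
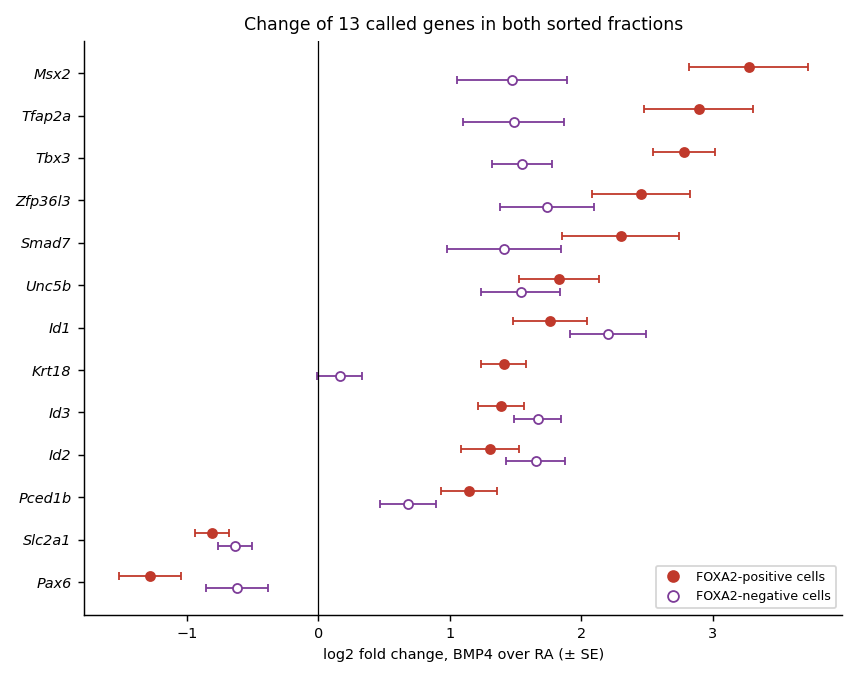
Log2 fold change of BMP4 over RA with its SE for 13 called genes, in FOXA2-positive cells (filled red) and FOXA2-negative cells (open purple). All 13 pairs lie on the same side of 0; those of Krt18, at 1.41 and 0.16, are among the farthest apart.

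The calls differed in how far they rested on the settings and on single libraries. Id3, Krt18, Msx2, Tbx3 and Zfp36l3 kept an adjusted p under 0.05 in edgeR or DESeq2 under all 15 alternatives, with highest values of 0.00416, 0.00416, 0.014, 7.57e-05 and 0.0459. Tfap2a kept it in 14, Slc2a1 in 13, Id1 and Id2 in 12, Unc5b in 11 and Pax6, Pced1b and Smad7 in 8. The log2 fold change of Tbx3 lay between 2.55 and 2.96, that of Msx2 between 2.95 and 3.78 and that of Krt18 between 1.27 and 1.64. None of these 13 genes changed direction in any of the 15.

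**Figure D5:**
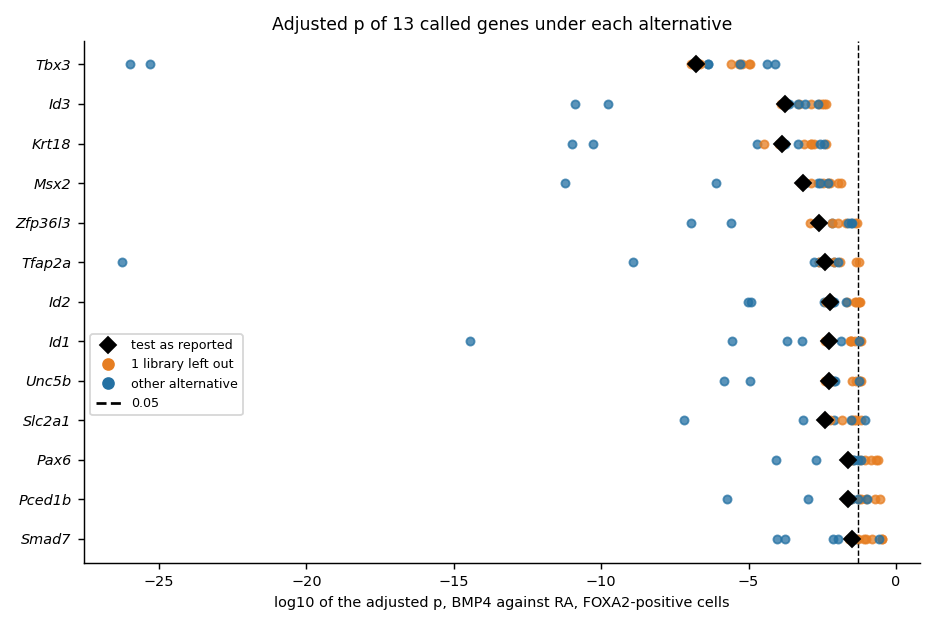
Adjusted p on a log10 axis for 13 called genes under the test as reported (black diamonds), with 1 of the 6 libraries left out (orange) and under the other alternatives (blue); the dashed line marks 0.05. Points of Tbx3, Id3, Krt18, Msx2 and Zfp36l3 all lie left of the line.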

How the data were processed

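RNA of sorted FOXA2-positive and FOXA2-negative mouse cells was sequenced by SMART-Seq v2, per the labels' protocols. The authors deposited a table of raw read counts by Ensembl gene for each of the 17 libraries. The build was mm10 and the tools included HTSeq 0.11.2, DESeq2 1.26.0, cutadapt 1.18 and UMI-tools 1.0.0, per the submitters' processing notes. Aligner, annotation release, strand setting and the handling of multi-mapping reads: not given in the sources used here. Each table held 49671 genes and 5 summary lines that name no gene. These lines took 49.3% to 54.4% of tallied reads and entered neither library sizes nor tests. Symbols and coordinates came from GENCODE M21 (GRCm38) for 49326 genes.

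Groups came from library titles. The analysis used edgeR 4.0.16 in R 4.3.3: filterByExpr (minimum count 10, minimum total 15) kept 17813 genes, libraries were scaled by TMM, and a robust quasi-likelihood model with 6 group means (11 residual degrees of freedom) was fitted to all 17 libraries. P-values were adjusted by Benjamini-Hochberg over all genes tested, with a threshold of 0.05. The common biological coefficient of variation was 0.632. The SE given beside a log2 fold change is its size over the root of its F statistic, an approximation. The same steps were also run on simulated counts, whose outcome is not given here and is no check of the calls above. Alternatives were DESeq2 1.42.0, RLE scaling, no filter, a filter of 5 CPM in 2 libraries and the replicate number as a block. For the difference between fractions, the treatment and number also served as a block (added after seeing the data). Further alternatives left out each library of the groups compared, 1 at a time, or both RA libraries numbered 1. The last were the compared groups alone and no genes of chromosomes 6, 8 and Y. FOXA2-negative LDN libraries were never left out.

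In all, 38 lists with 542 symbols were used, without set tests. Members, lists and tests were chosen with earlier results of these data known. Genes named had an adjusted p under 0.05, at least 5 CPM over both groups, no overlap between the groups' libraries and a symbol that is not a predicted gene, up to 15 in each direction; all 14 called genes met this, and 1 of them is not reported here. For the difference between fractions up to 10 genes with the smallest p could be named, and list members could be named everywhere.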

Additional observations from a re-analysis of the deposited data

Results flagged for a closer look

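The predicted non-coding gene Gm17251 (chromosome 17, 33759992 to 33761870, plus strand) was the 1 gene whose BMP4 change differed between the sorted fractions at an adjusted p under 0.05. In FOXA2-positive cells it had 7.09, 6.7 and 6.2 CPM after BMP4 and 5.2, 6.1 and 6.04 CPM in RA. In FOXA2-negative cells it had 9.66, 8.82 and 16.4 CPM after BMP4 and 102.4, 170.1 and 226.1 CPM in RA. The difference of the log2 fold changes was 4.04 ± 0.54 (SE, edgeR adjusted p = 0.00133), and between 3.74 and 4.37 over 19 alternatives, all of which kept the call (highest adjusted p 0.0191). The high values are those of the 3 FOXA2-negative RA libraries, and FOXA2-positive libraries of both treatments lay between 5.2 and 7.09 CPM.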

How the results depend on the processing

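For BMP4 against RA in FOXA2-positive cells the 14 calls became 55 with DESeq2 (40 higher, 15 lower) and 100 with no filter on low counts (74 higher, 26 lower), and both sets held all 14. The compared groups alone gave 25 calls, 13 of them among the 14, and 27 with the replicate block, all higher, with 10 among the 14. Both sets also held the list members Msx1, Gata2, Gata3, Bambi, Nog, Dkk1, Hand1 and Igf2, and the set with the block held Gpc3. Leaving out both RA libraries numbered 1 gave 9, and leaving out 1 library gave 7 to 15. The block on replicate number in all libraries gave 14 calls, 13 of them shared. Deviations of same-numbered BMP4 and RA libraries correlated at -0.162, -0.125 and -0.006 over 6655 genes. With 3 libraries a group, these values cannot show whether equal numbers share a culture, which the labels do not say. RLE scaling (14), the stricter filter (15) and removal of chromosomes 6, 8 and Y (14) stayed near the count. The difference between fractions gave 16 calls with DESeq2, 31 with no filter, 2 with the replicate block and 1 to 2 with a library left out. Between the sorted fractions, deviations of equal-numbered libraries correlated at 0.039, 0.090 and 0.068 in BMP4 and at 0.598, 0.234 and 0.277 in RA, and each FOXA2-positive library except RA library 2 correlated best with its own number. A replicate block by treatment and number, chosen after seeing the data, gave 2 calls for this difference, Gm17251 and Krt18 (1.27 ± 0.20, edgeR adjusted p = 0.0141). BMP4 against LDN gave 189 with DESeq2, 196 with no filter, 56 with the replicate block and 32 to 55 with a library left out. LDN against RA, with 37 calls (0.208% of genes tested), gave 230, 294, 41 and 10 to 35. Where 1 LDN library was left out, the other stands alone and is assumed to vary like the other groups. The called genes of BMP4 against RA kept their direction in 15 alternatives and Gm17251 in 19; directions of single genes were not compared for the LDN comparisons. The causes of the differing counts were not tested. Low counts limit genes such as Id4, Smad9 and Hhip.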

Other observations

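Imprinted genes, expressed from 1 parental allele, were tested in 18 members, and edgeR called 0 between BMP4 and RA in FOXA2-positive cells. An unadjusted p under 0.05 was reached by 7, all higher, against 998 of all 17813 genes. DESeq2 called H19 and Igf2, and 55 of the 26831 genes with a count, not all of which received an adjusted p. In every BMP4 library 7 members were above RA and 3 below (Zim1, Plagl1 and Kcnq1ot1), against 5.69% and 6.14% of all genes. Kcnq1ot1, an imprinted non-coding RNA, had 342.3, 343.4 and 355.4 CPM after BMP4 and 874.6, 382.6 and 396.5 CPM in RA (-0.67, adjusted p = 0.825), with RA library 1 far above the others. Igf2, an insulin-like growth factor gene, had 273.1, 244.0 and 175.8 CPM in BMP4 cells and 67.4, 82.1 and 125.2 CPM in RA cells (log2 fold change 1.34 ± 0.35, SE, edgeR adjusted p = 0.426, DESeq2 adjusted p = 0.0154). H19, the non-coding gene beside it, had 514.1, 491.4 and 302.4 CPM after BMP4 and 44.7, 51.2 and 156.8 CPM in RA (2.37 ± 0.63, edgeR adjusted p = 0.6, DESeq2 adjusted p = 0.0246). In both, BMP4 library 3 was the lowest of its group and RA library 3 the highest. LDN libraries had 71.4 and 93.8 CPM of Igf2 and 90.2 and 109.8 CPM of H19. Peg3, a paternally expressed zinc finger gene, had 329.9, 527.4 and 331.6 CPM after BMP4 and 283.4, 214.0 and 211.0 CPM in RA (0.75, adjusted p = 0.395). Against LDN (115.4 and 117.6 CPM) it was called, with a log2 fold change of 1.77 (adjusted p = 0.000215).

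Ephrin and glypican genes gave 0 edgeR calls of 18 (2 at an unadjusted p under 0.05, Efna1 by DESeq2) and of 10 (1, Gpc3 by DESeq2). Efna1, the gene of ephrin A1, had 16.9, 20.5 and 8.92 CPM after BMP4 and 2.99, 3.57 and 1.43 CPM in RA (2.53, edgeR adjusted p = 0.152, DESeq2 adjusted p = 0.00488). Gpc3, glypican 3, had 355.5, 419.4 and 285.4 CPM after BMP4 and 127.4, 249.0 and 165.3 CPM in RA (0.97, adjusted p = 0.223), and LDN libraries reached 284.1 and 416.8 CPM.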
